A study of Mus musculus with 58 samples.

Results

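The transcripts described here are the 9 respiratory chain subunits encoded by mitochondrial DNA that were chosen by name from the rows assigned to chromosome MT: ND1, ND2, ND3, ND4, ND5, ND6, CYTB, COX1 and ATP6. All 9 were found among the 15 rows of that chromosome and among the 15171 genes of the count table. Read counts were obtained by RNA sequencing of hippocampus and cortex taken at the injury site of 58 mice, 14 days after controlled cortical impact (TBI) or sham surgery. The mice were 3 months old, of both sexes, on a C57BL/6 background, and expressed human APOE3 (E3) or APOE4 (E4) in place of mouse Apoe. They carried both copies of Abca1 (Abca1+/+) or 1 copy (Abca1+/-). The deletion was not limited to a cell type, and no group had mouse Apoe. E3/Abca1+/+ mice numbered 8 after sham surgery and 8 after TBI, E3/Abca1+/- mice 7 and 6, E4/Abca1+/+ mice 7 and 7, and E4/Abca1+/- mice 7 and 8.

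Mitochondrial DNA is a small circular genome that cells hold in many copies. Both of its strands are transcribed as long precursors, which are cut at tRNA sequences into the mature messenger and ribosomal RNAs. Its protein products are core subunits of the respiratory chain: the ND proteins belong to complex I, which oxidizes NADH, CYTB to complex III, COX1 to complex IV, which reduces oxygen, and ATP6 to complex V, the ATP synthase. The other subunits of these complexes, and all of complex II, are encoded in the nucleus and imported. ABCA1 is a membrane transporter that passes cholesterol and phospholipid to apolipoproteins such as APOE.

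Reads of some of these genes may not have been assigned with certainty, because the nuclear genome holds copies of mitochondrial DNA. On build GRCm38, 8 members lie on the same strand (chrM:2751-3707 for ND1, chrM:3914-4951 for ND2, chrM:5328-6872 for COX1, chrM:7927-8607 for ATP6, chrM:9459-9806 for ND3, chrM:10167-11544 for ND4, chrM:11742-13565 for ND5 and chrM:14145-15288 for CYTB), and ND6 lies alone on the other (chrM:13552-14070), its end overlapping that of ND5. Each is a single exon. Of the 50-base windows of ATP6, 99.5% were also present in an annotated nuclear transcript, as were 98.0% of those of ND3, 62.2% of those of ND4, 51.1% of those of COX1, 8.19% of those of ND2 and 7.61% of those of ND5. No window of ND1, ND6 or CYTB was. The nuclear genes that held most of the shared windows of ND3, ND4, ATP6 and COX1 were unprocessed pseudogenes on chromosome 1 (Gm28438, Gm28439, Gm10925 and Gm29216), none of which was listed in the count table. The beginnings of ATP6 and ND3 are printed with those of their copies Gm10925 and Gm28438, to show how little separates them. A capital marks the position at which a pair differs.
ATP6 (chrM:7927-7986, plus strand): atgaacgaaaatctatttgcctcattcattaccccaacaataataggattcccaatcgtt
Gm10925 (chr1:24614592-24614651, minus strand): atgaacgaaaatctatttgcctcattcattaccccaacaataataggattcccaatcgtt
ND3 (chrM:9459-9518, plus strand): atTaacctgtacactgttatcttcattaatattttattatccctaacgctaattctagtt
Gm28438 (chr1:24613060-24613119, minus strand): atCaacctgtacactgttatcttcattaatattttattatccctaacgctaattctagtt
Over these 60 bases the ATP6 pair was identical and the ND3 pair differed by T3C, counted from 1 at the first base of the gene.

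Total counts per library ranged from 4421308 to 37877346, and the deeper libraries were mostly those of Abca1+/- mice: 21 of their 28 libraries were deeper than each of the 30 Abca1+/+ libraries, and the median total was 2.26 times higher. Levels are given as CPM, counts relative to the library's size, scaled with TMM factors that ran from 0.954 to 1.04. Abca1 itself was lower in Abca1+/- mice on average (log2 fold change -0.42, edgeR adjusted p = 0.000816). Within isoform and injury state, edgeR called it lower in E3 sham mice (-0.45, adjusted p = 0.00933). It was not called in E3 TBI (-0.71, adjusted p = 0.118), E4 sham (-0.35, 0.0783) or E4 TBI mice (-0.19, 0.724). In sham mice its level ran from 28.9 to 42.4 CPM with 1 copy and from 33.3 to 60.8 CPM with both, and in E4 TBI mice the groups overlapped widely (81.0 to 214 CPM against 98.7 to 296 CPM). All listed markers of neurons (8), astrocytes (6), microglia (7), oligodendrocytes (6), hippocampus (6) and cortex (6) were detected. Choroid plexus markers summed to more than 100 CPM in 16 libraries, unevenly by Abca1 genotype. In E3 sham, E3 TBI, E4 sham and E4 TBI mice these numbered 3, 1, 3 and 4 with 1 copy, and 0, 1, 2 and 2 with both.

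The members differed widely in counts per kilobase. Each level was taken over the whole gene, shared windows included, so the order below need not be that of abundance. Per kilobase of gene, COX1 had the highest level (6131 ± 768 CPM per kilobase, SD, n = 58 mice), followed by CYTB (4612 ± 541), ND1 (3703 ± 546), ND2 (2569 ± 417), ND6 (1885 ± 347), ND5 (1728 ± 296) and ND4 (1675 ± 253). ATP6 (176 ± 58.1) and ND3 (31.9 ± 8.83) were far below, with ranges over mice that did not touch those of their neighbours. The order from COX1 to ND6 was the same in each of the 58 mice although the ranges over mice overlapped. ND6 was above ND5 in 57 mice and ND5 above ND4 in 42. These differences within mice were not tested. Of the members' summed counts, COX1 took 34.5% and ND6, a short gene, 3.54%.

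**Figure D1:**
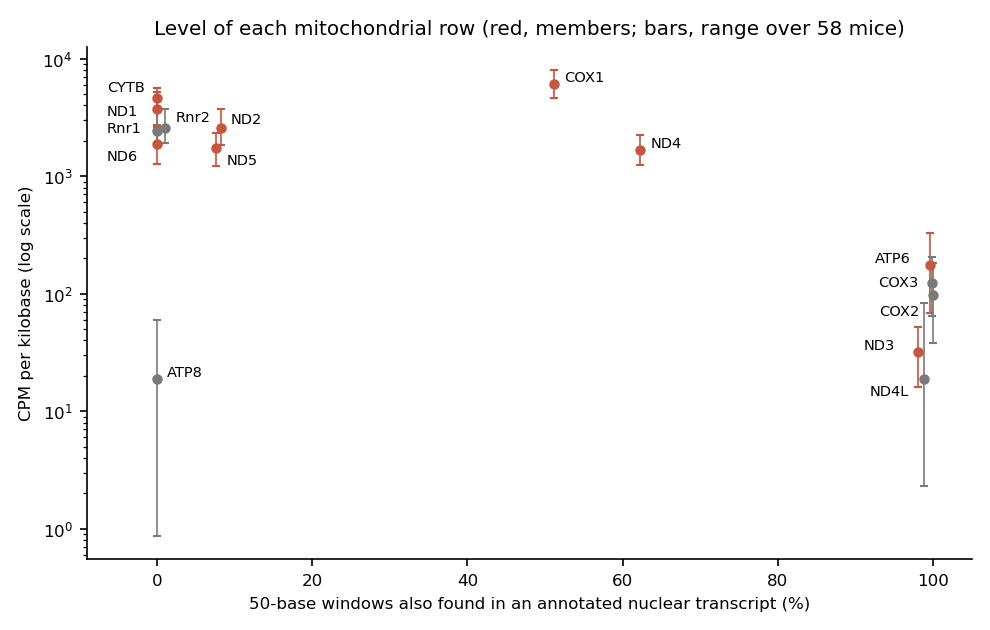
Level of the 15 mitochondrial rows per kilobase (log scale) against the share of their 50-base windows that also occur in an annotated nuclear transcript; points are means and bars the lowest and highest of 58 mice. The 5 rows with shares from 98.0% to 100%, among them ATP6 and ND3, lie at 176 CPM per kilobase or less on average. So does ATP8, with a share of 0 among annotated transcripts.

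The low level of ATP6 and ND3 went with their shared sequence, but its part in their counts was not tested. COX2, COX3 and ND4L, mitochondrial rows that are not members, had shares of 100%, 99.9% and 98.8% and levels of 97.0, 124 and 18.7 CPM per kilobase. ATP8, whose reading frame overlaps that of ATP6, was as low (18.9 CPM per kilobase) with no window in an annotated nuclear transcript. Only annotated transcripts were searched. ATP8 starts between COX2 and ATP6, whose copies lie at chr1:24614885-24615565 (Gm28661) and chr1:24613974-24614651 (Gm10925). The sequence between these copies was not searched, so a nuclear copy of ATP8 is not excluded. COX1 and ND4, with 51.1% and 62.2% of their windows shared, were high. In the shallowest cases ND3 rested on 52 counts in a library and ATP6 on 412, whereas the lowest count of any other member was 4433.

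The main question for these genes was whether their transcripts differed between mice with 1 and 2 copies of Abca1. All 9 did: averaged over isoform and injury, each was lower in Abca1+/- mice, and all 9 passed the adjusted threshold. Over all 15171 genes, 8.39% were called lower and 9.49% higher in the same comparison. The members' median log2 fold change was -0.37, beside 0.00 for all genes. Of the 9, ND1, ND2, ND4, ND5, ND6, COX1 and CYTB also belong to a group of genes that the study picked on these same mice for its relation to Abca1, so that their direction is not independent evidence. Library depth moved with the genotype, and they cannot be told apart by design. Because the tissue was profiled in bulk, fewer cells of a type and less RNA per cell cannot be told apart either.

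The 9 transcripts together took 3.00 ± 0.245% of the counts of a library in Abca1+/+ mice (n = 30) and 2.48 ± 0.263% in Abca1+/- mice (n = 28). Their lowest, median and highest shares were 2.44%, 2.96% and 3.61% with 2 copies, and 2.11%, 2.43% and 3.17% with 1 copy, so the genotypes overlapped across the series. By group, the mean share in E3/Abca1+/+ mice was 2.89 ± 0.249% after sham surgery and 3.02 ± 0.230% after TBI. It was 3.16 ± 0.254% and 2.95 ± 0.201% in the corresponding E4/Abca1+/+ mice. All 4 Abca1+/- groups were below these means, at 2.60 ± 0.304% in E3 sham, 2.52 ± 0.362% in E3 TBI, 2.32 ± 0.172% in E4 sham and 2.49 ± 0.170% in E4 TBI mice. The summed share of the mitochondrial ribosomal RNAs Rnr1 and Rnr2 was 0.647 ± 0.0707% with 2 copies and 0.630 ± 0.0933% with 1, a pooled value over groups that ran in different directions. In E4 sham mice it was 0.704 ± 0.0650% with 2 copies and 0.591 ± 0.0559% with 1, and in E3 TBI mice 0.658 ± 0.0802% and 0.731 ± 0.130%.

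The following values describe library depth and do not separate it from Abca1 genotype. Mean shares were set beside each other for shallower and deeper libraries of a genotype, pooled over groups and sexes. In the shallower and the deeper 15 Abca1+/+ libraries the members took 2.95 ± 0.206% and 3.06 ± 0.274% of the counts, and in the shallower and deeper 14 Abca1+/- libraries 2.40 ± 0.172% and 2.57 ± 0.314%. All 9 members remained called lower with the library total as a covariate, where log2 fold changes ran from -0.77 for ATP6 to -0.24 for CYTB. Thinning every library to the lowest total also left all 9 called lower. Thinning keeps each gene's expected share of its library, so it bears on count precision and not on differences tied to depth. A restriction to the range of totals that both genotypes share was chosen after seeing the data. It left 23 Abca1+/+ and 7 Abca1+/- libraries, the latter with 5 E4/Abca1+/- TBI mice and no E4/Abca1+/- sham mouse. A fit there with additive terms for Abca1, isoform and injury, not the average over 8 groups, gave changes from -0.81 for ATP6 to -0.27 for CYTB. With 1 E3/Abca1+/- sham and 1 E3/Abca1+/- TBI library, only the size of these changes is given. Median totals still differed, at 12737314 counts in the Abca1+/- and 10416910 in the Abca1+/+ libraries.

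**Figure D2:**
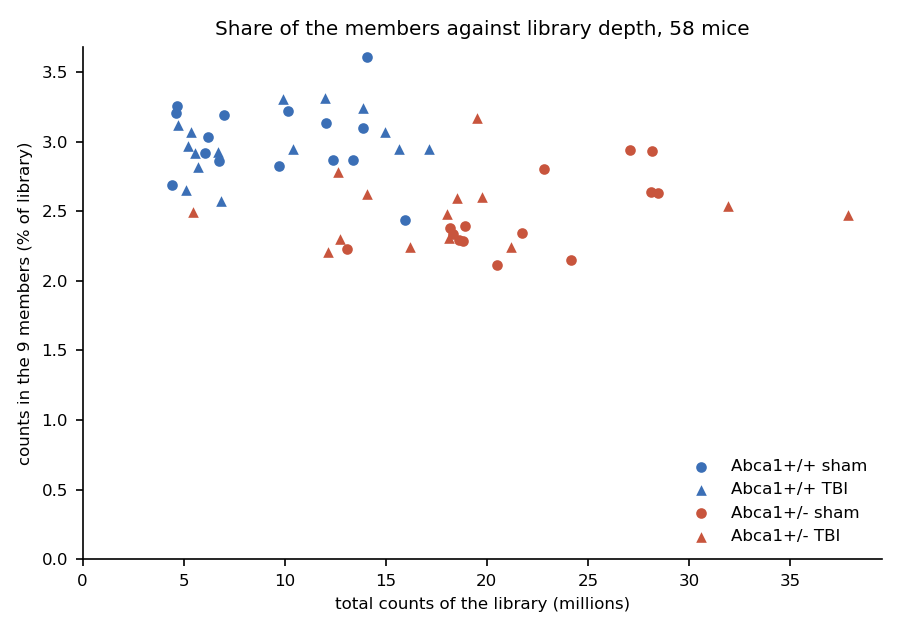
Percent of each library's counts in the 9 members against its total counts, 1 point per mouse (circles, sham; triangles, TBI; blue, Abca1+/+; red, Abca1+/-). The Abca1+/- points lie mostly to the right and lower, between 2.11% and 3.17%, and the Abca1+/+ points between 2.44% and 3.61%.

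The complex I subunits fell together. ND1 and ND2, which sit in the proton-pumping membrane arm with the other ND subunits, were at 3155 and 2321 CPM in Abca1+/- mice against 3916.5 and 2997 CPM in Abca1+/+ mice, averaged over the 4 groups of each genotype. The log2 fold change was -0.31 ± 0.035 (SE) for ND1 and -0.37 ± 0.037 for ND2, with adjusted p of 2.59e-09 and 6.9e-11. Across the series, 18 of 28 Abca1+/- mice had less ND1 than the lowest Abca1+/+ mouse, and 23 had less ND2.

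ND4 and ND5, homologues of bacterial antiporter subunits, were lower by 0.35 ± 0.033 and 0.39 ± 0.038 on the log2 scale (adjusted p = 1.69e-11 and 4.85e-11). ND4 averaged 2021 CPM with 1 copy and 2579 CPM with 2, and ND5 averaged 2723 and 3561 CPM. In 22 of 28 Abca1+/- mice ND4 was below each Abca1+/+ mouse, and in 21 ND5 was. ND6, the member transcribed from the opposite strand, changed by -0.41 ± 0.041 (838 against 1111 CPM, adjusted p = 9.34e-11). Whether the counting used strand is not given in the sources used here, so that counts of ND6 may include RNA of the other strand. ND3 had the lowest counts and the largest fitted change of the 9, -0.50 ± 0.079 (9.14 against 12.9 CPM, adjusted p = 4.24e-06), an estimate that rests on a gene with 98.0% of its windows shared.

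CYTB and COX1 had the smallest fitted changes. CYTB, the subunit of complex III that holds its ubiquinol sites, was at 4882 CPM with 1 copy and 5655 CPM with 2, a log2 fold change of -0.21 ± 0.032 (adjusted p = 1.81e-06), and 9 of 28 Abca1+/- mice were below each Abca1+/+ mouse. COX1, the catalytic subunit of cytochrome c oxidase, was at 8723 and 10201 CPM (-0.23 ± 0.033, adjusted p = 8e-07, 16 of 28 mice). ATP6, part of the proton channel of the ATP synthase, was at 99.6 and 139 CPM (-0.49 ± 0.102, adjusted p = 0.000365), but only 4 of 28 mice were below each Abca1+/+ mouse. The members' shares of their own sum moved accordingly, as a description: COX1 made up 33.8 ± 0.796% of it with 2 copies and 35.2 ± 0.899% with 1, CYTB 18.8 ± 0.591% and 19.7 ± 0.435%, and ND6 3.69 ± 0.238% and 3.38 ± 0.152%.

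**Figure D3:**
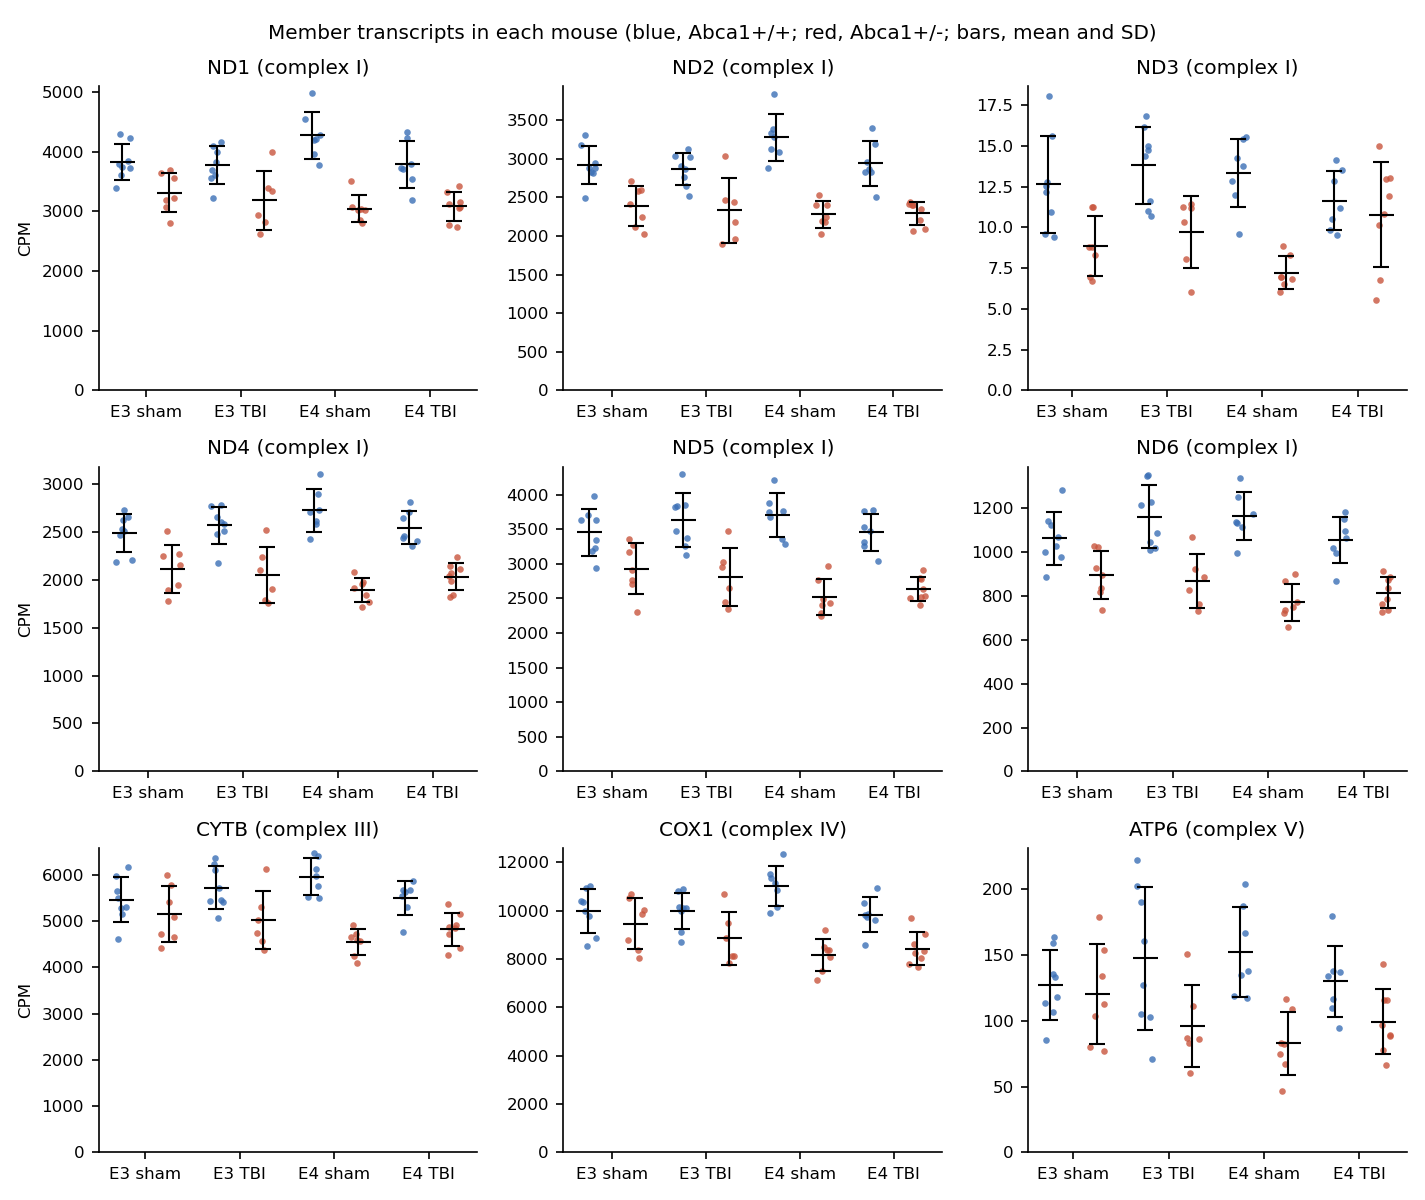
CPM of each member in each mouse (points), by isoform and injury (x axis) and Abca1 genotype (blue, Abca1+/+; red, Abca1+/-), with the mean and SD of each group as bars; axes start at 0. In E4 sham mice the genotypes do not overlap for any of the 9 members.

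The fitted difference was largest in E4 sham mice. All 9 members were called lower there in E4/Abca1+/- (n = 7) than in E4/Abca1+/+ mice (n = 7), and for all 9 the groups did not overlap. Of all genes, 0.6% were called lower and 0.363% were lower with no overlap. The median log2 fold change of the members was -0.52, beside 0.00 for all genes.

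For COX1, the lowest, median and highest of the 7 E4/Abca1+/- sham mice were 7122, 8369 and 9175 CPM, and those of the 7 E4/Abca1+/+ sham mice 9879, 11122 and 12324 CPM. For CYTB they were 4098, 4588 and 4902.5 CPM against 5502, 5960.2 and 6457 CPM. The highest heterozygous mouse was thus below the lowest wild-type mouse for both genes, by log2 fold changes of -0.43 ± 0.053 and -0.39 ± 0.045 between group means (adjusted p = 0.000325 and 0.000192).

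Among the complex I subunits, ND1 ran from 2799.9 to 3503.5 CPM (median 3030.1) in E4/Abca1+/- sham mice and from 3775 to 4981 CPM (median 4204) in E4/Abca1+/+ sham mice. ND2 ran from 2021 to 2535 CPM (median 2249) against 2874 to 3842 CPM (median 3279). ND4 ran from 1719 to 2081 CPM (median 1910.5) against 2418 to 3105 CPM (median 2708). These 3 differed by -0.49 ± 0.056, -0.52 ± 0.058 and -0.52 ± 0.052, ND4 having the smallest adjusted p of the 9 (6.44e-05).

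ND5 ran from 2241 to 2970.1 CPM (median 2437) in E4/Abca1+/- sham mice and from 3286.5 to 4215 CPM (median 3752) in the wild type. ND6 ran from 659.8 to 900.3 CPM (median 749) against 995 to 1340.3 CPM (median 1139.9). Their log2 fold changes were -0.56 ± 0.063 and -0.59 ± 0.069. ATP6 and ND3, whose windows were mostly shared, had the largest fitted changes: ND3 ran from 6.03 to 8.84 CPM against 9.60 to 15.5 CPM (-0.89 ± 0.107), and ATP6 from 47.0 to 116 CPM against 117 to 204 CPM (-0.88 ± 0.167, adjusted p = 0.0185). With the library total as a covariate, 7 members were called and CYTB and ATP6 missed the threshold (adjusted p = 0.0693 and 0.06).

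After TBI in E4 mice, 6 of the 9 were called lower in E4/Abca1+/- (n = 8) than in E4/Abca1+/+ mice (n = 7), where 0.844% of all genes were. ND2, ND4 and ND5 had no overlap between the groups (0.191% of all genes). ND5 ran from 2403 to 2912 CPM (median 2581) against 3041 to 3784 CPM (median 3473), with a log2 fold change of -0.41 ± 0.055 (adjusted p = 0.0048). ND2 ran from 2065 to 2433 CPM (median 2370.0) against 2501 to 3393.5 CPM (median 2871), and ND4 from 1815 to 2235 CPM (median 2057.5) against 2354 to 2811 CPM (median 2452). ND2 and ND4 changed by -0.38 ± 0.062 and -0.34 ± 0.055.

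ND1, ND6 and COX1 were also called but overlapped between the groups, with changes of -0.31 ± 0.067, -0.39 ± 0.068 and -0.24 ± 0.057 (adjusted p = 0.033, 0.0122 and 0.0468). The COX1 call was lost with a filter of 10 counts in every mouse, with the depth covariate and with thinning (adjusted p = 0.058, 0.0741 and 0.0692). CYTB, ATP6 and ND3 did not pass the threshold, although CYTB did with DESeq2's Wald test and in 1 fit over all mice (adjusted p = 0.0146 and 0.0472). ND3 ran from 5.55 to 15.0 CPM (median 11.4) in E4/Abca1+/- TBI mice and from 9.55 to 14.1 CPM (median 11.2) in the wild type, and its fitted change was -0.13 ± 0.183.

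In E3 mice the same direction was seen with fewer calls. In sham mice (7 Abca1+/- against 8 Abca1+/+) all 9 fitted changes were below 0, with a median of -0.24, but 1 member, ND2, was called, where 0.883% of all genes were called lower. ND2 ran from 2029 to 2707 CPM (median 2417.5) with 1 copy and from 2489 to 3303 CPM (median 2878) with 2, a change of -0.29 ± 0.062 (adjusted p = 0.0176), and 4 of the 7 heterozygous mice were below each wild-type mouse. The call was lost with the library total as a covariate (adjusted p = 0.367). DESeq2's Wald test called 6 members lower there (ND1, ND2, ND3, ND4, ND5 and ND6). The share of all genes that DESeq2 called is not given beside this count. COX1 (8051 to 10671 CPM against 8544 to 10993 CPM), CYTB (4420.0 to 5999 CPM against 4614 to 6171.5 CPM) and ATP6 (77.4 to 179 CPM against 85.3 to 164 CPM) overlapped between the genotypes, with changes of -0.08 each.

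In E3 mice after TBI (6 Abca1+/- against 8 Abca1+/+), edgeR called no member, and 0.0923% of all genes lower. All 9 members had an unadjusted p under 0.05, and DESeq2's Wald test called 4 of them (ND3, ND4, ND5 and ND6). The share of all genes is not given for either count. The members also rose and fell together from mouse to mouse, so they are not separate observations. Changes ran from -0.61 ± 0.238 for ATP6 to -0.17 ± 0.071 for COX1, with a median of -0.32. ND6 was closest to the threshold: it ran from 732 to 1069 CPM (median 857) against 1008 to 1354 CPM (median 1149), and 5 of 6 heterozygous mice were below each wild-type mouse (-0.42 ± 0.094, adjusted p = 0.0875).

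**Figure D4:**
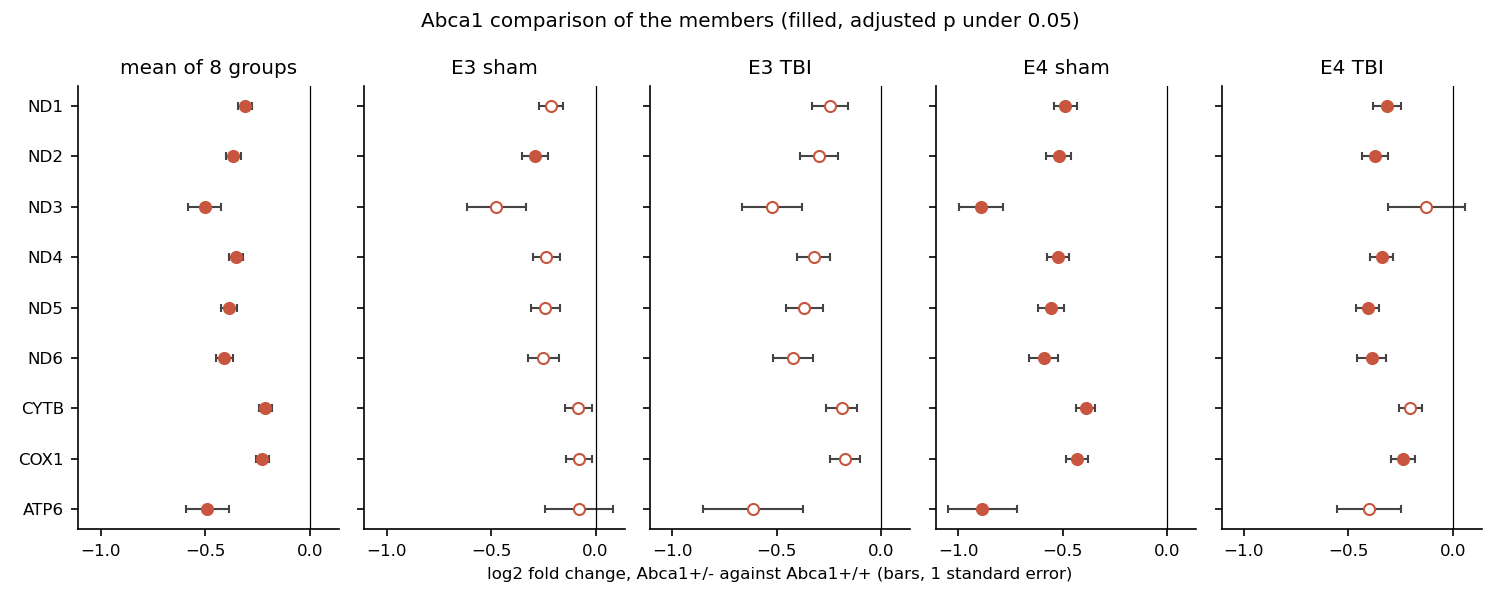
Log2 fold change of each member between Abca1+/- and Abca1+/+ mice, averaged over the 8 groups (left) and within each isoform and injury state; bars are 1 standard error and filled points have an adjusted p under 0.05. Each of the 45 points lies below 0, and filled points number 9, 1, 0, 9 and 6 from left to right.

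Whether the Abca1 difference itself varied with isoform was tested as an interaction. The fitted interaction was below 0 for 8 of 9 members, meaning a larger decrease in E4 than in E3 mice, with a median of -0.15. No member passed the adjusted threshold with edgeR or with DESeq2, 6 had an unadjusted p under 0.05, and the smallest adjusted p was 0.163 for COX1 (-0.20 ± 0.066). Over all genes 0.0659% were called. The interaction of Abca1 with injury called no member with either tool and 0.0% of genes, with 1 member at an unadjusted p under 0.05 (ND3, chosen here after its value was seen). A larger difference in one isoform or injury state is therefore not shown.

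The nuclear subunits of the same complexes did not fall with the mitochondrial ones. Of 76 listed nuclear subunits 74 were found, and in the average over isoform and injury 45 were called higher and 1 lower in Abca1+/- mice, with a median log2 fold change of 0.09. Over all genes 9.49% were called higher and 8.39% lower. Here too, library depth cannot be told apart from Abca1 genotype. In complex I, 25 of 36 were called higher and none lower, among them the accessory subunits Ndufs4 (58.9 against 52.2 CPM, log2 fold change 0.17, adjusted p = 4.01e-07), Ndufa11 (62.7 against 54.7 CPM, 0.19), Ndufb5 (89.7 against 81.8 CPM, 0.13) and Ndufa7 (53.8 against 48.0 CPM, 0.16). In complex II, the complex without mitochondrially encoded subunits, 1 of 3 was called higher (Sdhc, 0.09). In complex III 3 of 8 were, Uqcrh (0.14), Uqcr10 (0.15) and Uqcrq (0.12). In complexes I and III each increase was smaller in size than the decrease of any mitochondrially encoded partner, a comparison of fitted values that was not tested.

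In complex IV 6 of 11 nuclear subunits were called higher, with Cox6b1 (163 against 142 CPM, 0.20), Cox4i1 (403 against 359 CPM, 0.17) and Cox8a (215 against 158 CPM, 0.44) having the smallest p. Cox7c was called lower (-0.47), at 2.51 against 3.52 CPM. In complex V 10 of 16 were called higher, and those with the smallest p were Atp5j2, which had the largest change of the list (84.9 against 37.8 CPM, 1.17, adjusted p = 1.99e-33), Atp5e (0.20), Atp5k (0.17) and Atp5o (0.12). Atp5j2 belongs to the same gene group picked by the study as 7 of the members, but its fitted change here had the opposite sign to theirs. The difference between the nuclear and the mitochondrial sets was not itself tested.

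**Figure D5:**
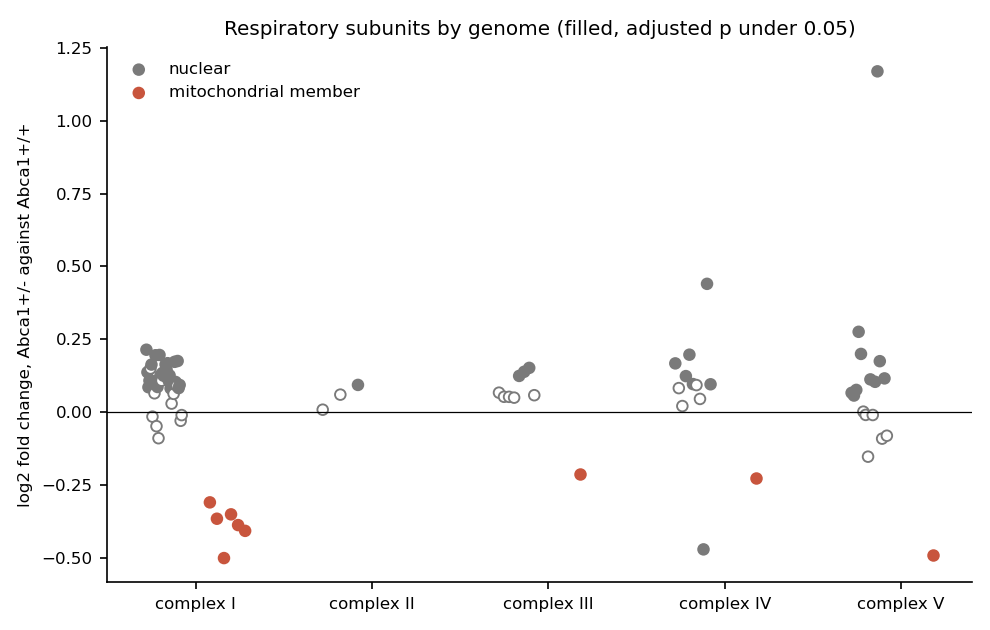
Log2 fold change between Abca1+/- and Abca1+/+ mice, averaged over isoform and injury, of respiratory subunits encoded in the nucleus (grey, 74 genes) and of the 9 members (red), by complex; filled points have an adjusted p under 0.05. The red points lie between -0.50 and -0.21, whereas the grey ones are mostly above 0, with Atp5j2 at 1.17 and Cox7c at -0.47.

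Genes that act on mitochondrial DNA and RNA are read against the 9.49% of all genes called higher and 8.39% called lower in this comparison. Of 30 genes of mitochondrial transcription and RNA handling, 5 were called higher and none lower in Abca1+/- mice (median 0.01), including Tefm, a transcription elongation factor (5.42 against 4.73 CPM, 0.20, adjusted p = 0.0127), Hsd17b10 (0.15) and Trmt10c (0.10), both parts of the RNase P that trims tRNA ends, and Rexo2, an RNA exonuclease (0.10). Of 11 genes that maintain mitochondrial DNA, Slc25a4, the adenine nucleotide carrier (0.11), and Tk2, a thymidine kinase (0.09), were called higher. Of 8 regulators of mitochondrial biogenesis 1 was called lower, Ppargc1a, the coactivator PGC-1alpha (65.2 against 73.1 CPM, -0.16, adjusted p = 0.000127). Of 17 genes used as measures of mitochondrial mass, 5 were called higher and none lower (median 0.06), among them Phb2 (0.13), Mdh2 (0.10) and Vdac2 (0.06).

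Cell type and region markers are read against the same shares of all genes called (9.49% higher and 8.39% lower), and their part in the members' difference was not tested. None of 8 neuronal and 6 oligodendrocyte markers was called. The summed neuronal markers ran from 5736 to 9118 CPM (median 8009.6) in Abca1+/+ and from 6319 to 8876 CPM (median 8124) in Abca1+/- mice. Called lower were 1 of 6 astrocyte markers (Slc1a2, the glutamate transporter, -0.24), 3 of 5 endothelial markers (Cdh5 -0.25, Flt1 -0.19 and Pecam1 -0.18) and 2 of 6 cortical markers, Rorb (-0.27) among them. Called higher were 2 of 7 microglial markers (Aif1 0.25 and Tyrobp 0.31). The summed astrocyte markers ran from 4859 to 9920 CPM (median 6190.3) and from 4623 to 9450.0 CPM (median 5647), and the summed cortical markers from 267 to 602 CPM (median 449) and from 239 to 555 CPM (median 402). The summed endothelial markers had medians of 185 and 173 CPM, the microglial ones 492 and 535 CPM, and the oligodendrocyte ones 3121 and 3114 CPM.

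None of 6 hippocampal markers was called (medians of the sum, 362 and 368 CPM), nor any of 5 choroid plexus markers (16.3 and 22.2 CPM, with highest libraries at 1773 and 2048 CPM) or of the 3 erythroid markers found of 5 (1.24 and 1.64 CPM). The choroid plexus markers all had fitted changes above 0 in Abca1+/- mice, from 0.37 to 2.23 (median 1.24). Hippocampal markers ran from -0.07 to 0.30 (median 0.14) and cortical ones from -0.32 to -0.02 (median -0.14). No marker found was at 0 in every mouse. When the 16 libraries with more than 100 CPM of choroid plexus markers were left out, a choice made after seeing the data, all 9 members were still called lower, ATP6 with the largest adjusted p (-0.38, 0.0356).

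The other mitochondrial rows did not all follow the members. In the Abca1 average, COX2, the second core subunit of complex IV, was called lower (60.2 against 72.8 CPM, -0.30, adjusted p = 0.0274), as was ND4L, a complex I subunit of few counts (4.15 against 6.96 CPM, -0.70, adjusted p = 0.0388). ATP8, which shares a transcript with ATP6, had a change of -0.58 (adjusted p = 0.0545). COX3 was at 97.8 against 97.4 CPM (0.00, adjusted p = 0.99). In that average the ribosomal RNAs Rnr1 (2315 against 2385 CPM, -0.04) and Rnr2 (4029 against 4117 CPM, -0.04) were not called. Within E4 sham mice, however, Rnr1 was called lower with 1 copy (2202 against 2718 CPM, -0.30, adjusted p = 0.043), with 6 of 7 mice below each wild-type mouse, and Rnr2 was at -0.26 (adjusted p = 0.0641). In E3 TBI mice their fitted changes were 0.19 and 0.16 (adjusted p = 0.659 and 0.702). The isoform by Abca1 interaction was -0.36 for Rnr1 and -0.29 for Rnr2, with unadjusted p of 5.52e-05 and 0.00106 and adjusted p of 0.062 and 0.125.

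Few members were called between injured and sham mice. Averaged over genotypes, edgeR and DESeq2 called no member, where 53.3% of all genes were called in one or the other direction, and 1 member had an unadjusted p under 0.05. Fitted changes ran from -0.06 for ND1 to 0.17 for ND3, with a median of -0.01 beside 0.01 for all genes. COX1 averaged 9270.0 CPM after TBI and 9654 CPM after sham surgery, CYTB 5261 and 5276 CPM, and ND5 3133 and 3151 CPM. The interval of 2 standard errors around the change reached from -0.12 to 0.01 for COX1 and from -0.06 to 0.06 for CYTB. These intervals include 0. In the same mice the neuronal markers fell (7 of 8 called) and all 6 astrocyte and 7 microglial markers rose, the last by a median of 0.99.

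ND3 was the member closest to a change with injury (0.17 ± 0.079, adjusted p = 0.0587), and it passed the threshold with a filter of 10 counts in every mouse and with the depth covariate (adjusted p = 0.0407 and 0.0241). Within genotypes it was called in 1 of the 4 genotypes, E4/Abca1+/-, where 17.7% of all genes were called higher: ND3 ran from 5.55 to 15.0 CPM (median 11.4) in 8 TBI mice and from 6.03 to 8.84 CPM (median 6.96) in 7 sham mice, so the groups overlapped (0.56 ± 0.174, adjusted p = 0.0191). The call was lost when libraries were thinned to the lowest total (0.52, adjusted p = 0.103). In E4/Abca1+/+ mice all 9 fitted changes were below 0 (median -0.16), and 1 member, COX1, was called lower where 4.98% of all genes were, with 5 members at an unadjusted p under 0.05. The ribosomal RNAs Rnr1 (-0.26, adjusted p = 0.0111) and Rnr2 (-0.24, adjusted p = 0.0157) were called lower there too. COX1 ran from 8569.5 to 10925 CPM (median 9799.9) after TBI and from 9879 to 12324 CPM (median 11122) after sham surgery, with overlap (-0.17 ± 0.053, adjusted p = 0.0374). That call was lost under 3 alternatives: thinning, a filter of 10 counts in every mouse, and 1 fit over all mice (adjusted p = 0.0504, 0.0957 and 0.0777). In E3/Abca1+/+ and E3/Abca1+/- mice neither edgeR nor DESeq2 called a member and none had an unadjusted p under 0.05, where 23.3% and 23.8% of all genes were called. Sham groups are shared between these comparisons and those of Abca1.

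In its main setting, edgeR called no member between the APOE isoforms. Averaged over Abca1 and injury, no member was called by edgeR or DESeq2 or had an unadjusted p under 0.05, where 15.0% of genes were called, and fitted changes ran from -0.10 to 0.03. In Abca1+/+ sham mice all 9 fitted changes of E4 against E3 were above 0 (median 0.13), and in Abca1+/- sham mice all 9 were below 0 (median -0.21). No member was called in either, where 0.349% and 5.13% of all genes were called. At an unadjusted p under 0.05 were 5 and 7 members, given without the share of all genes at that level. In the Abca1+/- sham mice DESeq2 called 1 member, and edgeR with the depth covariate called 3, counts given without their shares of all genes. COX1 there ran from 7122 to 9175 CPM (median 8369) in E4 and from 8051 to 10671 CPM (median 9855) in E3 mice (-0.21 ± 0.065, adjusted p = 0.0674). After TBI neither genotype had a member called by either tool or at an unadjusted p under 0.05, where 0.211% and 2.9% of genes were called. The interaction of isoform with injury called none by either tool, none at an unadjusted p under 0.05, and 0.00659% of genes.

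Sex was tested over all groups with edgeR. Of the 9 members 8 had lower fitted values in female than in male mice, with log2 fold changes from -0.14 for ND3 to 0.00 for CYTB, and 3 (ND1, ND2 and ND4, chosen here after their values were seen) had an unadjusted p under 0.05. None passed the adjusted threshold with edgeR or with DESeq2, where 10.1% of all genes were called with edgeR. ND2 was closest (-0.08 ± 0.035, adjusted p = 0.109).

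The members rose and fell together from mouse to mouse. Over the 58 mice, Pearson's r of log2(CPM + 1) between pairs of the 7 members other than ATP6 and ND3 ran from 0.88 to 0.98 (21 pairs), and from 0.79 to 0.94 after group means were removed. ATP6 had r of 0.65 to 0.74 with those 7 and ND3 0.63 to 0.68, and within groups 0.38 to 0.56 and 0.30 to 0.45. The values share a library and its scaling, and are given as a description. Against the members' mean, the ribosomal RNAs had low values (0.33 for Rnr1, 0.29 for Rnr2).

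By the rule set for likeness, the 10 nuclear genes with the highest r against the members' mean log2(CPM + 1) over 58 mice were Trank1 (0.82), Malat1, a nuclear-retained long noncoding RNA (0.78), Gm3764 (0.78), Tial1, an RNA-binding protein (0.75), Mir124a-1hg, a host transcript of miR-124 (0.75), Smpd4, a sphingomyelinase (0.74), Abcc5, an ABC transporter (0.72), Meg3, an imprinted long noncoding RNA (0.71), C030023E24Rik (0.71) and Msi2, an RNA-binding protein (0.71). Their fitted Abca1 changes ran from -0.59 for Malat1 to -0.16 for Tial1, a direction that the choice of genes favours because the members' mean was itself lower in Abca1+/- mice. After group means were removed, with the 8 groups pooled, their r ran from 0.31 for Msi2 to 0.76 for Trank1. Of the 10, 2 (Trank1 and Meg3) were among the 10 highest by that measure. The likeness itself follows from the choice of these genes by their r, and r was not computed within any single group.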

How the data were processed

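RNA was sequenced from 58 mice in 8 groups of 6 to 8. The authors aligned and counted reads per gene with Subread and featureCounts (version 1.5.0) on build mm10 and deposited raw read counts that they had already filtered, 1 column per mouse. Read length, strand setting and treatment of reads with several matches are not given in the sources used here. Totals ran from 4421308 to 37877346 counts, which bounds the precision of the least counted members (ND3, 52 to 582 counts). Before use, 23 gene names stored as dates were set back to symbols.

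Counts were tested with edgeR 4.0.16 (quasi-likelihood test, TMM scaling, filterByExpr, which removed 0 genes) in R 4.3.3 over all 15171 genes, with Benjamini-Hochberg adjustment and a threshold of 0.05. Comparisons between 2 groups used those groups. Averages and interactions used all 58 mice, each a separate animal, so the p-values measure the spread between mice. On simulated counts for the Abca1 average, 72% of genes changed by 0.25 on the log2 scale were recovered and 92% of those changed by 0.5. Intervals are 2 standard errors. Counts of members with an unadjusted p under 0.05 are given without the share of all genes at that level. Alternatives were DESeq2 1.42.0 size factors and its Wald test, other filters, scaling without chromosome MT, library total or sex as a covariate, thinning to the lowest total, 1 fit over all mice and each mouse left out. Windows of 50 bases were searched in 141730 nuclear transcripts.

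All 9 members, Abca1, the other mitochondrial rows, up to 4 genes a list (those called in the Abca1 average with the smallest p) and the 10 most alike nuclear genes are named. Members and lists were chosen with earlier results of these data known. Some genes that this rule names are not reported here.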

Additional observations from a re-analysis of the deposited data

Results flagged for a closer look

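Of 80 sets of values examined (10 measures in 8 groups), 1 held a mouse far from the others of its group. In E4/Abca1+/- sham mice, ND1 was at 3503.5 CPM in replicate 1, against 3072.0 CPM in the next highest mouse and a group median of 3030.1 CPM. The gap was 0.613 of the range of the 7 mice, above Dixon's critical value of 0.568. Chance alone gives such a gap in about 5% of groups. The mouse was still below each E4/Abca1+/+ sham mouse.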

How the results depend on the processing

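In the Abca1 average all 9 members were called lower under each alternative that kept all 8 groups, and the APOE isoform average called none under any. No called value changed direction. Leaving out each mouse in turn gave 9 to 9 called members for Abca1, 0 to 0 for isoform and 0 to 1 for injury. In the injury average, 14 of the 58 omissions gave 1 member: omission of E3/Abca1+/+ TBI replicates 2 and 5 or sham replicate 5, E3/Abca1+/- sham replicates 2 and 5 or TBI replicates 1, 4 and 6, E4/Abca1+/- TBI replicates 1 and 3 or sham replicate 1, and E4/Abca1+/+ TBI replicates 5 and 7 or sham replicate 6. That average also called 1 with at least 10 counts in every mouse and 1 with the library total as a covariate, in place of 0. TBI against sham in E4/Abca1+/+ mice called 0 in place of 1 with at least 10 counts, with thinning and in 1 fit over all mice, and in E4/Abca1+/- mice 0 in place of 1 with thinning. Abca1 in E3 sham mice, with 1 member called, gave 6 with DESeq2's Wald test, 0 with the library total, 2 with thinning, 3 with sex as a covariate and 2 in 1 fit over all mice. Abca1 in E3 TBI mice, with 0, gave 4 with DESeq2's Wald test and 3 in 1 fit over all mice. Abca1 in E4 TBI mice, with 6, gave 5 to 7. E4 against E3 in Abca1+/- sham mice, with 0, gave 1 with DESeq2's Wald test, 3 with the library total and 1 in 1 fit over all mice. The share of all genes called under each alternative is not set beside these counts. The cause of these changes was not tested. The restriction to shared depth and the omission of libraries with choroid plexus markers were chosen after seeing the data. The former used additive terms in place of the average over 8 groups. No paired analysis was run, because each mouse gave 1 library and the labels name no pairs of mice. The depth limits ND3 most, with 52 counts in the shallowest case, and Abca1 genotype and library depth cannot be told apart.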
